A study of Saccharomyces cerevisiae with 12 samples.

Results

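The SO2 response of yeast cells that lack the transcription factor Com2 was taken from 6 of the 12 arrays of the series. These are the 3 arrays of BY4741_com2Δ cells incubated for 60 min with 0.5 mM SO2 at pH 3.5 and the 3 arrays of the same mutant incubated for 60 min at pH 3.5 without SO2, chosen by their labels and not by any measured value. The other 6 arrays hold the parental strain BY4741 (WT) under the same conditions, 3 with SO2 and 3 without, and serve here only for values side by side and for the test of whether the strains responded differently. Both strains are Saccharomyces cerevisiae, haploid and of mating type a, and carry his3Δ1, leu2Δ0, met15Δ0 and ura3Δ0, so that control cells also lack a working copy of these genes. Methionine, leucine, histidine and uracil were added to the glucose and ammonium sulfate medium to allow for this, so the sulfur responses below are those of cells supplied with methionine. The mutant is a single deletion strain of the Euroscarf collection, the labels call the replicates biological, and no second deletion strain or strain with COM2 put back was on the arrays.

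At low pH part of the dissolved sulfite is uncharged SO2, which crosses the plasma membrane and dissociates again to sulfite inside the cell, where it binds to aldehydes, ketones and thiols. Yeast removes sulfite with the efflux pump Ssu1 and can also reduce it to sulfide on the way to methionine and cysteine. Com2 is a zinc finger protein related to the general stress activators Msn2 and Msn4. The comparison described here asks which transcripts still change with SO2 when Com2 is missing.

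Each array gave 1 intensity per probe set, linear and never below 1, and the medians of the 6 com2Δ arrays lay between 1673 and 1750. COM2 itself read 19.2, 20.3 and 19.1 in com2Δ cells with SO2 and 9.35, 10.3 and 12 in com2Δ control cells, against 2752, 2368 and 2496 in WT cells with SO2 and 3558, 3680 and 2858 in WT control cells. The com2Δ values are all far under 152.5, the highest reading on any array of LEU2, MET17 (the gene of met15Δ0) and URA3, genes that neither strain carries intact. That reading is used below as the level under which an intensity cannot be told from that of an absent gene, and a fold change against a lower reading has no firm size. HIS3 gave 10150, 8137 and 9028 in com2Δ cells with SO2, so its probe set does not test his3Δ1, a partial deletion. None of 7 a-specific and 4 alpha-specific genes was called by limma in com2Δ cells. Of each, 3 had an unadjusted p under 0.05 in limma, as had 2373 of all 5667 features. STE2, the pheromone receptor of a cells, read 9782 to 10806 with SO2 and 11308 to 15889 without. A feature was called when limma gave a change of at least 2-fold, a p under 0.05 and a Benjamini-Hochberg adjusted p under 0.1 over all 5667 features. These p-values measure the spread between replicate cultures, and the small number of arrays limits their precision. Since each array holds RNA of a whole culture, fewer cells with a transcript and less of it per cell cannot be told apart.

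SO2 changed 333 features in com2Δ cells (5.88% of those tested). Of these 178 rose (3.14%), with a median change of 1.38 on the log2 scale, and 155 fell (2.74%), with a median of −1.26. The median standard errors were 0.227 and 0.202. Of the 178, 34 rose more than 4-fold and 9 more than 8-fold, and of the 155, 25 fell more than 4-fold and 4 more than 8-fold. The 3 arrays with SO2 lay wholly above those without in 177 of the 178 and wholly below in 152 of the 155. Over all features the arrays did not overlap in 47.1%, 24.1% upward and 23.1% downward. The median intensity of the features that rose was 1371 with SO2 and 441.9 without, and 21 of the 178 and 15 of the 155 had both group means under 152.5. No gene is listed for 8 of the features that rose and 11 of those that fell, among them 1 at a log2 fold change of 4.62. Replicate 2 with SO2 was the lowest of its group in 149 of the 178 features that rose, and its median log2 distance from the control mean in these was 1.04, against 1.74 in replicate 1 and 1.46 in replicate 3. In the 155 that fell, the distances were 1.42, 1.37 and 1.22 in replicates 2, 1 and 3. Without replicate 2 with SO2, 236 features rose and 163 fell. Beyond leaving it out, its part in single results was not tested. Leaving out the dimmest 25% of features left 76 risen and 68 fallen.

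The largest rises of named genes were spread over several functions. SFC1, which encodes the mitochondrial carrier that exchanges succinate for fumarate, read 1282, 535 and 766 in com2Δ cells with SO2, against 45.6, 40.1 and 65.8 in com2Δ control cells (4.03 on the log2 scale in com2Δ and −0.20 in WT cells). All these control values are under 152.5. FRM2, a member of the nitroreductase family, read 3155, 1370 and 2443 with SO2 and 128, 217 and 256 without (a log2 change of 3.51 with standard error 0.31 and a limma adjusted p of 3.85e-05). CRC1, the mitochondrial carrier of carnitine and acylcarnitine, read 1287, 429 and 950 with SO2, against 72.0, 92.7 and 115 without (3.14, standard error 0.35, and 2.17 in WT cells). The malate synthase gene MLS1 read 645, 191 and 510 with SO2, against 40.3, 40.8 and 52.3 without (3.17, standard error 0.37, and 2.98 in WT cells). The control values of CRC1 and MLS1 are all under 152.5 too, so the sizes of their rises are uncertain. In all 4 genes replicate 2 was the lowest of the 3 arrays with SO2 and still lay above every control array. SRL4 and the uncharacterized gene YER187W rose by 3.0 and 2.82 on the log2 scale (standard errors 0.39 and 0.25), and YEF1, an ATP-NADH kinase that makes NADPH, by 2.81 (standard error 0.19), with 2898, 1878 and 3022 against 320, 387 and 389. YER175W-A (log2 fold change of 2.74) and YGL138C (2.48) also rose, but every one of their com2Δ values was under 152.5, and the rise of YGL138C was under 2-fold with 16 added to each intensity (0.58).

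**Figure D1:**
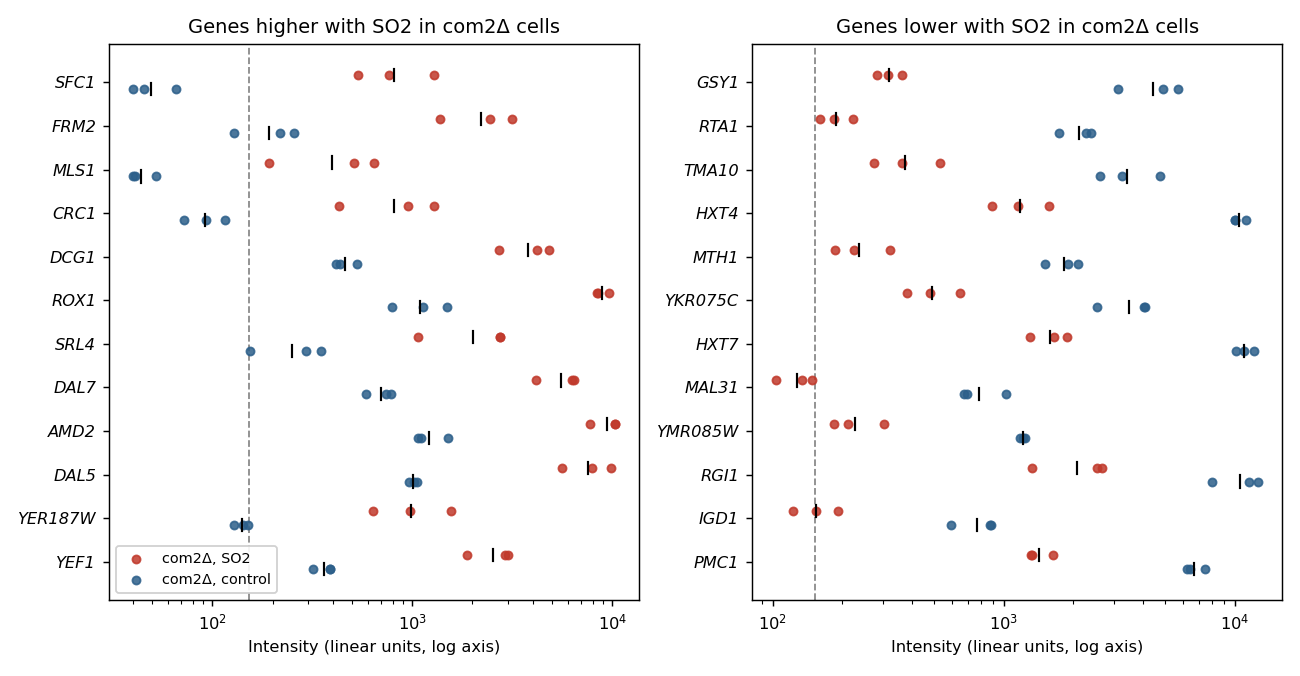
Intensity on each array (log axis) of 12 genes that rose and 12 that fell with SO2 in com2Δ cells, with 3 points per group (red, com2Δ with SO2, above blue, com2Δ control) and a black bar at the mean of the log values. The dashed line marks 152.5, the highest reading of LEU2, MET17 and URA3. The groups do not overlap in any of the 24 genes, and the control values of SFC1, MLS1 and CRC1 lie left of the dashed line.

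The group with the largest share of risen members was that of allantoin and urea use, through which yeast obtains nitrogen from purine breakdown products when ammonium or good amino acids are scarce. Of its 11 measured genes 9 rose and none fell. The median over the list was 1.62 on the log2 scale, against 0.0139 over all features. WT cells showed a like response, with 8 of the 11 risen, none fallen and a median of 1.64. The difference between the strains was called upward for 2 genes and downward for 2. The study names genes of this list from these samples, so the list is not independent evidence of its direction. The enzymes and permeases rose together. The allantoate permease gene DAL5 read 7936, 5607 and 9880 with SO2, against 1050, 1016 and 965 without, and the urea permease gene DUR3 read 14342, 12388 and 14600, against 2686, 4321 and 3559 (1.99 on the log2 scale, standard error 0.21, limma adjusted p = 9.59e-05). Allantoinase (DAL1), allantoicase (DAL2) and ureidoglycolate lyase (DAL3) rose by 1.53, 1.2 and 1.62, and DCG1, a gene of the same cluster, by 3.05. The allantoin permease gene DAL4 read 686, 381 and 702 with SO2, against 203, 158 and 232 without, and had a log2 fold change of 1.54 in com2Δ and −0.01 in WT cells. The difference of 1.55 was called (limma adjusted p = 0.0106). DAL7, a second malate synthase gene close in sequence to MLS1, read 6299, 4168 and 6447 with SO2, against 736, 785 and 585, and cross-reaction between their probe sets was not tested. DAL81 and DAL82, the activators of the pathway, were not called.

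Some regulators of nitrogen use also rose. GAT1, an activator of the GATA family, read 2170, 2206 and 2084 in com2Δ cells with SO2, against 849, 853 and 755 in com2Δ control cells (log2 fold change of 1.40 in com2Δ and 3.60 in WT cells, difference −2.20). The GATA repressor gene DAL80 read 169, 107 and 186 with SO2, against 29.3, 30.5 and 34.1 without (2.26 in com2Δ and 4.07 in WT cells, difference −1.81). All its com2Δ control values and 1 with SO2 are under 152.5, so the sizes of these changes are uncertain. The ammonium permease gene MEP2 reached 15285, 12950 and 16014 with SO2, against 3440, 3814 and 3686 without, with like changes in both strains (2.01 in com2Δ and 2.35 in WT cells). Of all 12 genes of ammonium uptake and GATA factors only MEP2 and GAT1 were called. The putative amidase gene AMD2 read 10353, 7769 and 10335 with SO2 and 1064, 1503 and 1101 without, a log2 fold change of 2.96 in com2Δ and 2.97 in WT cells. In the use of gamma-aminobutyrate, a list added after the values were seen, 3 of 4 genes rose, namely the permease UGA4 (2.38, standard error 0.24), the transaminase UGA1 (1.14) and the activator UGA3 (1.15), while UGA2 was not called (0.88). UGA3 rose more in WT cells (2.73, difference −1.57).

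Gluconeogenesis, the glyoxylate cycle and carboxylate transport serve growth on ethanol, acetate and other carbon sources without sugar, and glucose normally represses them. In WT cells 7 of 23 measured genes rose and 5 fell, at a median of 0.352. In com2Δ cells 7 rose (3.14% of all features rose) and none fell, while the median over the list was 0.112. Only 1 rise was called without the 25% dimmest features, and 1 gene fell without replicate 1, 2 or 3 with SO2, without control replicate 1 or 2, or with median centring. Besides SFC1, CRC1, MLS1 and DAL7, the genes that rose in com2Δ cells were the activator SIP4 (log2 fold change of 1.95, standard error 0.25), PCK1 and ICL1. PCK1, the phosphoenolpyruvate carboxykinase that controls entry to gluconeogenesis, read 1156, 551 and 821 with SO2, against 261, 283 and 293 without (1.53 in com2Δ and 0.35 in WT cells). The isocitrate lyase gene ICL1 read 820, 421 and 630, against 284, 285 and 239 (1.16 in com2Δ and 1.96 in WT cells, difference of −0.79 not called), and its rise was under 2-fold without replicate 1 with SO2 (0.94). The activators CAT8 and ADR1 went the other way, at log2 fold changes of −0.99 and −0.93, with 124, 127 and 112 against 215, 213 and 304 for CAT8, and both were within 2-fold. All CAT8 readings with SO2 are under 152.5, so the size of its fall is uncertain. The fall of CAT8 was called in 6 alternatives, without replicate 1 or 2 with SO2 (−1.01 and −1.03) or control replicate 1 or 2 (−1.07 and −1.08), with quantile normalization (−1.05) and with median centring (−1.01), and that of ADR1 without replicate 3 with SO2 (−1.03). CIT3, a mitochondrial citrate and methylcitrate synthase, was the only one of 19 genes of the TCA cycle to be called (none without the 25% dimmest features), with 853, 354 and 812 against 190, 151 and 194 (1.82 in com2Δ and −0.24 in WT cells). Limma called none of 35 genes of the respiratory chain and ATP synthase, 15 glycolytic enzymes or 8 genes of heme synthesis. Of them 3, 3 and 6 in that order had an unadjusted p under 0.05, against 2373 of 5667 over all features.

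Peroxisomal fatty acid oxidation had 4 of 21 genes risen and 2 fallen in WT cells. In com2Δ cells 4 rose (3.14% of all features rose) and none fell, but 1 rose without the 25% dimmest features and 1 fell without control replicate 3. The 4 that rose in com2Δ cells take different steps. The acyl-CoA oxidase gene POX1 read 299, 101 and 239 in com2Δ cells with SO2, against 50.0, 46.6 and 54.8 in com2Δ control cells. In WT cells it read 189, 281 and 329 with SO2 and 322, 227 and 265 without, so that the com2Δ control arrays, all under 152.5, lay below every WT array, and 2 of the 3 com2Δ arrays with SO2 within the WT range. SPS19, a dienoyl-CoA reductase, read 1828, 1012 and 1252 with SO2, against 503, 470 and 543 without (1.39 in com2Δ and −1.54 in WT cells). IDP3, the peroxisomal isocitrate dehydrogenase, rose by 1.36 in com2Δ cells (0.06 in WT cells), and the carnitine acetyltransferase gene YAT2 by 1.38 (2.75 in WT cells).

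Some genes moved in opposite directions in the strains. Of the 178 features that rose in com2Δ cells, 18 fell in WT cells (8.36% of all features fell there), 73 rose there too (10.5% of all) and 87 were not called there. The transcription factor gene CIN5 (YAP4) of the Yap family read 3311, 1603 and 3649 in com2Δ cells with SO2, against 417, 519 and 531 in com2Δ control cells, and 119, 98.3 and 133 in WT cells with SO2, against 373, 523 and 705 in WT control cells. ALD6, the cytosolic acetaldehyde dehydrogenase that makes acetate and NADPH, read 19018, 15957 and 18100 in com2Δ cells with SO2, against 9423, 7980 and 7055 in com2Δ control cells. In WT cells it read 2147, 1759 and 1962 with SO2 and 11882, 9747 and 13095 without (log2 fold changes of 1.12 in com2Δ and −2.56 in WT cells, difference 3.68, adjusted p = 8.08e-07 from limma). FMP48, a putative mitochondrial protein kinase, had 1.18 in com2Δ and −3.08 in WT cells, and GCY1, a glycerol dehydrogenase of the aldo-keto reductase family, 1.64 and −1.40. The 6-phosphogluconate dehydrogenase gene GND2 read 1758, 721 and 1286 with SO2, against 311, 237 and 303 without, and had 2.06 in com2Δ and −2.09 in WT cells. CIN5 was the only gene called in com2Δ cells among 8 Yap family factors, and GND2 the only one among 14 of the pentose phosphate pathway. Without the 25% dimmest features none of these 2 lists rose. ALD6 was the only one called of 21 genes of acetaldehyde and ethanol metabolism. The uncharacterized gene YER053C-A showed the largest difference among all genes called in com2Δ cells (5.21), with 7792, 4593 and 7878 in com2Δ cells with SO2, against 911, 2443 and 3256 in com2Δ control cells. AQR1, an exporter of short-chain acids and amino acids, had 1.01 in com2Δ and −1.34 in WT cells, and its rise was under 2-fold without replicate 2 with SO2 (0.99) and without control replicate 3 (0.95). SPR3, a septin of sporulating cells, and SDD1 rose by 1.93 and 1.53 in com2Δ cells and had −1.73 and −2.10 in WT cells.

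**Figure D2:**
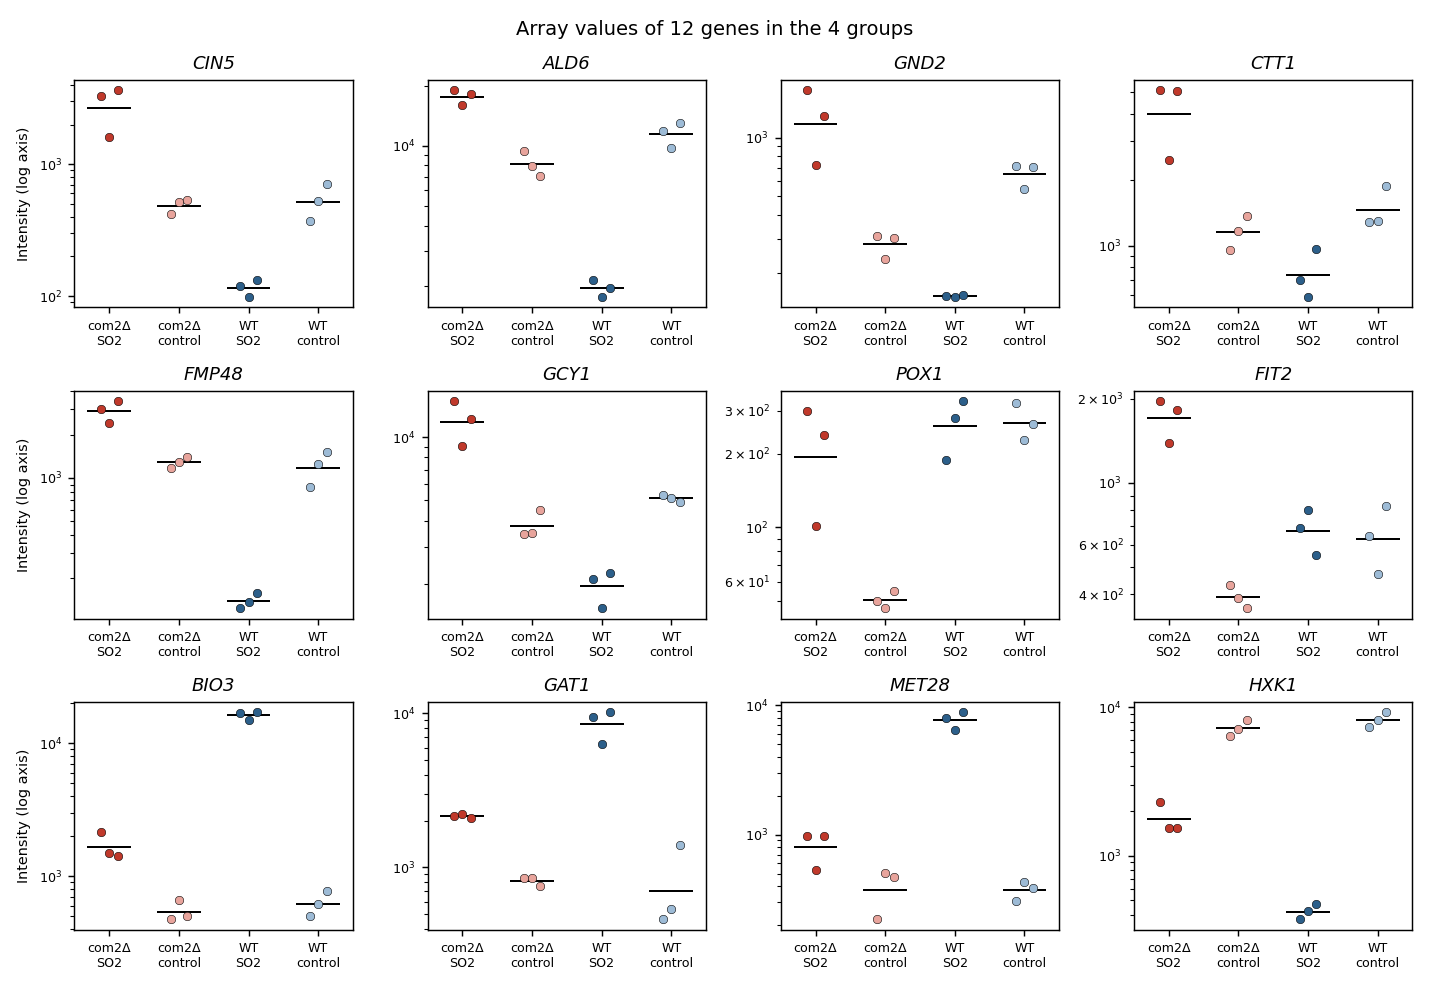
Intensity on each array (log axis, scaled per gene) of 12 genes in com2Δ cells with SO2 and without, and in WT cells with SO2 and without, with 3 points per group and a bar at the mean of the log values. CIN5, ALD6, GND2, FMP48 and GCY1 are above control in com2Δ cells and below it in WT cells, POX1 starts lower in com2Δ control cells, and BIO3, GAT1 and MET28 rise in both strains but further in WT cells.

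Other genes rose in com2Δ cells and were not called in WT cells. The catalase gene CTT1, which detoxifies hydrogen peroxide in the cytosol, read 5123, 2454 and 5085 with SO2, against 959, 1163 and 1372 without (1.80 in com2Δ and −0.99 in WT cells, difference 2.79, adjusted p = 0.000403 from limma). It belongs to a list of 32 thiol redox and antioxidant enzymes, of which 2 rose and 1 fell in com2Δ cells. The median over that list was −0.0709, and 29 were not called. DAK2, a dihydroxyacetone kinase, read 1050, 340 and 663, against 93.1, 99.7 and 101 (2.66 in com2Δ and −0.52 in WT cells). All its com2Δ control values are under 152.5, so the size of its rise is uncertain. ROX1, the repressor of hypoxic genes, read 9629, 8515 and 8430 with SO2, against 791, 1129 and 1483 without, and none of the other 19 measured genes of the list of ROX1 and hypoxic genes was called in com2Δ cells. PHD1, a transcription factor of filamentous growth that was named after its values were seen, read 4578, 4240 and 4474, against 757, 919 and 902 (2.37 in com2Δ and 0.08 in WT cells, difference 2.29). In CTT1 and DAK2 replicate 2 was the lowest array with SO2 and still above every control array. The carbonic anhydrase gene NCE103 had the largest rise in mean intensity, to 26501, 23920 and 25505 with SO2, against 8676, 8141 and 9516 without (1.53 in com2Δ and 0.69 in WT cells, and the difference of 0.84 was not called). ATG41, ICY1 and the zinc transporter gene ZRT1 were bright genes that rose in either strain, by 1.95, 1.28 and 1.59 in com2Δ and 2.35, 1.39 and 1.87 in WT cells.

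Of 28 genes of the iron uptake regulon 3 rose and 1 fell, and the median over the list was 0.0502. FIT2, a mannoprotein that holds siderophores in the cell wall, read 1957, 1386 and 1816 with SO2, against 432, 387 and 356 without (2.12 in com2Δ and 0.09 in WT cells, difference 2.03). The low-affinity iron transporter gene FET4 and the heme oxygenase gene HMX1 rose by 1.58 and 1.52 in com2Δ cells (0.43 and −0.52 in WT cells), while the enterobactin transporter gene ENB1 fell by 1.09. Its fall was under 2-fold without replicate 2 with SO2 (−0.84) or control replicate 1 (−0.99), and 2 genes of the list fell without replicate 3 with SO2 or control replicate 3. ISU1, a scaffold for iron-sulfur clusters, was the only one called of 18 genes of cluster assembly, at 1.74 in com2Δ and 1.85 in WT cells. IZH4, a membrane protein linked to zinc, read 2731, 1505 and 1544 with SO2, against 471, 470 and 431 without, and had 2.02 in com2Δ and −1.56 in WT cells. With ZRT1 it made 2 risen genes of 12 of the zinc regulon. Without the 25% dimmest features 1 gene of this list and 1 of the iron regulon rose.

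Genes of meiosis and sporulation, programs that haploid cells do not run, were among those that rose, some from low readings. Of 24 measured, 4 rose and 6 fell in WT cells, and 5 rose (3.14% of all features rose) and 1 fell in com2Δ cells. Without replicate 2 with SO2, 8 rose, without the 25% dimmest features 1 rose, and 2 fell without replicate 1 with SO2 or control replicate 2. SPO21, a component of the meiotic spindle pole, read 1949, 893 and 1487 with SO2, against 414, 470 and 442 without (1.64, standard error 0.23). The membrane fusion gene SPO20 read 181, 79.3 and 140, against 18.8, 23.7 and 30.5, and the protein kinase gene SPS1 389, 192 and 335, against 142, 86.5 and 78.4. All control values of SPO20 and SPS1 are under 152.5, so the sizes of their rises are uncertain. SPS4 rose by 1.30, and SPS2 (1.26) had both means under 152.5. SPS100, a spore wall gene, fell by 1.53, but by less than 2-fold without the 2 com2Δ arrays farthest from their replicates (−0.92). RME1, the repressor of meiosis, rose by 1.52, with 8953, 6877 and 7774 against 3174, 2735 and 2315. CLB1, a mitotic cyclin, was the only gene called among 16 of G2/M and mitotic exit, with 5726, 5812 and 6051 against 1801, 1948 and 2528 (1.5 in com2Δ and 2.38 in WT cells).

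Sulfate assimilation, which reduces sulfate by way of sulfite to sulfide, did not rise. Of its 10 genes none rose and 2, SUL1 and MET14, fell in com2Δ cells, and the median over the list was −0.128, against 10 risen and a median of 3.53 in WT cells. The difference of responses was called downward for all 10 (9.3% of all features), from −4.79 to −1.46. The sulfate permease gene SUL1 read 112, 70.0 and 124 with SO2, against 277, 221 and 217 without, and 11839, 13068 and 13596 in WT cells with SO2. Its com2Δ readings with SO2 are all under 152.5, so the sizes of its fall and of its difference (−4.79) are uncertain. The adenylylsulfate kinase gene MET14 read 2067, 1521 and 1953, against 3813, 3292 and 4349 (−1.05 in com2Δ and 1.78 in WT cells), and its fall was under 2-fold without replicate 2 with SO2 (−0.92) and without control replicate 3 (−0.95). Among 18 genes that make methionine, cysteine, S-adenosylmethionine and glutathione, none rose and 1 fell. This was GSH1, the first enzyme of glutathione synthesis, with 1053, 1258 and 1465 against 2948, 2752 and 2307 (−1.09 in com2Δ and 0.78 in WT cells, under 2-fold without replicate 1 with SO2 at −0.97). MET28, a cofactor of the activator Met4, rose to 981, 533 and 971, against 221, 502 and 473 (1.09 in com2Δ and 4.36 in WT cells), and its rise was under 2-fold without replicate 1 or 3 with SO2 (0.94 and 0.95) or control replicate 1 (0.71). Among 8 genes of the transport of organic sulfur compounds MMP1 and MUP3 fell and none rose. The fall of MUP3 was under 2-fold without replicate 2 with SO2 (−0.87) and with array weights (−0.86), and that of SUL1 with array weights (−0.87). A single gene of this last list rose without replicate 2 with SO2. Without the 25% dimmest features 1 gene of sulfate assimilation and 1 of this list fell. SSU1, the sulfite pump, read 13524, 9460 and 12699 with SO2, against 8724, 10350 and 8581 without, and was not called (0.36, standard error 0.15, adjusted p = 0.1 from limma, 0.42 in WT cells). Lists with no gene called by limma in com2Δ cells included arginine metabolism (15 genes), lysine synthesis (9) and branched-chain amino acid synthesis (11). The same held for aromatic amino acid metabolism (15) and histidine and purine synthesis (19). Over all features 5.88% were called. In that order 6, 1, 1, 4 and 4 had an unadjusted p under 0.05, against 2373 of all 5667 features. Without replicate 2 with SO2, 1 arginine gene was called. In WT cells 10, 8, 9, 6 and 3 rose (10.5% of all features rose there). The difference of responses was called downward for 8, 6, 9, 5 and 3, and upward for 1 arginine gene and 2 of histidine and purine synthesis. The study names genes of these sulfur and amino acid lists from these arrays, which makes their directions no independent evidence.

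Biotin is the cofactor of carboxylases. Of 6 measured genes of its synthesis and uptake 4 rose in com2Δ cells, with a list median of 1.16, and the difference from WT cells was called downward for all 6. BIO5, a transporter of a biotin precursor, read 348, 355 and 318 in com2Δ cells with SO2, against 132, 142 and 143 in com2Δ control cells, and 12870, 15877 and 13879 in WT cells with SO2 (1.29 in com2Δ and 5.26 in WT cells). All its com2Δ control values are under 152.5. BIO3, an aminotransferase, read 2143, 1493 and 1416 with SO2, against 473, 657 and 498 without (1.62 in com2Δ and 4.71 in WT cells). Biotin synthase (BIO2) and the activator VHR1 rose by 1.15 and 1.18 in com2Δ and had 3.59 and 2.59 in WT cells, and the rise of BIO2 was under 2-fold without replicate 2 with SO2 (0.96). SNO1, of pyridoxine synthesis, fell by 1.14, by under 2-fold without that array (−0.96), and PET18 rose by 1.58, the only calls among 17 genes of thiamine and pyridoxine. The study names biotin genes from these arrays, so their direction is no independent evidence.

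Among the genes that fell were many of glucose sensing, hexose transport and storage carbohydrates. Of 15 genes of glucose sensing and hexose kinases 6 fell and none rose, at a median of −0.749, and all 15 log2 fold changes were below 0. In WT cells 7 of them fell and none rose, at a median of −0.757. Without the 25% dimmest features 3 fell in com2Δ cells. MTH1, the corepressor of hexose transporter genes, read 185, 321 and 224 with SO2, against 1511, 2106 and 1897 without (−2.94 in com2Δ and −3.11 in WT cells). The glucose sensor gene SNF3 read 221, 309 and 278, against 937, 960 and 794 (−1.74, with standard error 0.22 and limma adjusted p 0.000271, and −2.01 in WT cells). The hexokinase gene HXK1 and the related EMI2 fell by 2.03 and 1.37, and by less than in WT cells (−4.29 and −3.85, differences 2.26 and 2.48). MIG1 and MIG2, the repressors that act when glucose is plentiful, fell by 1.21 and 1.05. The fall of MIG2 was under 2-fold without replicate 1 or 3 with SO2 (−0.82 and −0.94) or control replicate 3 (−0.97).

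Hexose transporters had 5 of 15 fallen and 1 risen, and 3 fallen and none risen without the 25% dimmest features. HXT4 read 887, 1576 and 1157 with SO2, against 9999, 11209 and 10031 without (−3.15 in com2Δ and −4.59 in WT cells, difference 1.44). HXT2 read 1696, 3339 and 2460, against 11819, 10303 and 8949, and its fall was much smaller than in WT cells (−2.10 in com2Δ and −4.90 in WT cells, difference 2.80). HXT7 fell by 2.79, and its probe set also reads sequences of its near-identical neighbour HXT6. HXT5 fell by 2.29, with 249, 180 and 345 against 1564, 900 and 1275. The calls of HXT13 (−1.62) and HXT14 (1.06) rest on readings of at most 65.1, far under 152.5. That of HXT13 was lost without replicate 3 with SO2 (−0.61), without control replicate 1 or 3, and with 16 added (−0.55). The 6 com2Δ arrays alone, or the loss of single WT arrays, also ended it. HXT14 lost its call without replicate 1 with SO2 (0.66), without control replicate 2 (0.76), with quantile normalization (0.88) and with 16 added (0.66). The low-affinity transporter HXT1 read 9545, 11667 and 10685, against 14367, 13411 and 12424, and was not called (−0.34 in both strains).

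Storage carbohydrates, trehalose and glycogen, had 8 of 18 measured genes fallen and none risen (median −0.694). The study names genes of this list too. GSY1, a glycogen synthase, read 364, 283 and 314 with SO2, against 3126, 5669 and 4918 without. This was the largest fall of a named gene (−3.80, with standard error 0.28 and limma adjusted p 9.86e-06, and −4.61 in WT cells). The branching enzyme GLC3, the phosphorylase GPH1, the phosphatase subunit GAC1, phosphoglucomutase PGM2, the glycogenin GLG1 and the trehalose synthase subunit TSL1 fell by 1.93, 1.82, 1.73, 1.64, 1.27 and 1.24. In WT cells they had −2.85, −2.58, −3.3, −2.09, −0.56 and −2.52. The acid trehalase gene ATH1 fell by 1.01, just past the limit, and by less than 2-fold without replicate 2 with SO2 (−0.88) or control replicate 2 (−0.92). Trehalose-6-phosphate synthase, TPS1, read 6223, 4940 and 6270, against 5398, 6410 and 6310, and was not called. Other genes that fell by more than 4-fold include IGD1, an inhibitor of glycogen debranching (−2.32), RGI1, a protein of respiratory growth (−2.35), TMA10 (−3.19) and the uncharacterized genes YKR075C (−2.82) and YMR085W (−2.41). RTA1 read 185, 161 and 222 with SO2, against 2265, 1741 and 2379 without.

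Maltose genes and genes of calcium handling also fell, by lists added after the values were seen. Of 10 measured genes of maltose and isomaltose use 5 fell and none rose. The maltose permease genes MAL31 and MAL11 are close in sequence and read 103, 147 and 134, against 672, 1024 and 690, and 72.7, 92.1 and 85.6, against 357, 513 and 380. All their readings with SO2 are under 152.5, so the sizes of these falls are uncertain. The activator MAL33, the maltose permease MPH2 and the regulator ZNF1 fell by 1.56, 1.39 and 2.18, the last 2 with both means under 152.5. Of 17 genes of calcium handling and calcineurin signalling 6 fell and none rose, at a median of −0.664. PMC1, the vacuolar calcium pump, read 1328, 1306 and 1637 with SO2, against 7479, 6227 and 6435 without (−2.24 in com2Δ and −2.68 in WT cells). RCN1, which regulates calcineurin, the calmodulin-dependent kinase CMK1, the cell surface protease YPS1, the transporter RCH1 and PUN1, a plasma membrane protein, fell by 1.39, 1.03, 1.11, 1.17 and 1.15, with log2 fold changes of −0.96 to −1.83 in WT cells. The call was lost for CMK1 without control replicate 2, for RCH1 without replicate 2 with SO2 (−0.98), and with array weights for RCH1 (−0.76), PUN1 (−0.89), YPS1 (−0.82) and RCN1 (−0.99). The related kinase gene CMK2 read 3736, 3224 and 4143, against 7322, 7221 and 7485, a log2 fold change of −1.0 that lies just outside the limit. PHO89, a phosphate transporter induced in part by calcineurin, fell by 2.14, with 1133, 973 and 1633 against 6690, 4840 and 4727, and was the only one called of 18 genes of the phosphate regulon, where 2 fell without replicate 3 with SO2. Its control level was higher in com2Δ than in WT cells (1.76, adjusted p = 0.00136 from limma).

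Cell wall genes had 3 of 32 fallen and none risen, and 1 fallen without replicate 1 with SO2 or control replicate 1. The chitin synthase genes CHS1 and CHS3 read 3819, 4040 and 4118, against 9376, 7599 and 7547, and 2311, 3082 and 2670, against 6210, 5560 and 4725 (−1.03 each in com2Δ, −0.20 and 0.07 in WT cells). The difference was called for CHS3 (−1.10) and not for CHS1 (−0.83), and both falls were under 2-fold without control replicate 1 (−0.92 and −0.94), that of CHS3 also without replicate 1 with SO2 (−0.93). The wall protein gene PIR3 read 1096, 1321 and 1233, against 2923, 2468 and 2949 (−1.19 in com2Δ and 0.16 in WT cells, difference −1.35). HAP4, the limiting activator of respiratory genes, fell by 1.15 in com2Δ and had −3.75 in WT cells (difference 2.60).

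Regulators of the Com2 family moved both ways. Of 12 stress regulators related to Com2, 1 rose and 4 fell, and 2 fell without replicate 1 with SO2, without control replicate 3, or without the 25% dimmest features. NRG1, a repressor of genes that glucose represses, read 5910, 3158 and 5379 with SO2, against 1659, 2128 and 2121 without (1.25, standard error 0.23), while MIG1, MIG2, USV1 and GIS1 fell. GIS1 and USV1 fell by 1.06 and 1.16, and by under 2-fold without replicate 1 with SO2 or control replicate 2 for GIS1 (−0.99 each) and control replicate 3 for USV1 (−0.96). MSN2 read 3108, 3222 and 3214, against 1825, 1941 and 1987, a log2 fold change of 0.73 that was not called (0.75 in WT cells). Of 27 general stress genes 1 rose and 4 fell in com2Δ cells, at a median of −0.227, and 1 rose and 12 fell in WT cells, at −0.768. The one that rose in com2Δ cells is CTT1, and 4 rose without replicate 2 with SO2, 2 rose without control replicate 1 or 3 of WT cells, and 1 fell without the 25% dimmest features. No gene was called of 128 cytosolic ribosomal proteins (from −0.422 to 0.301), 55 mitochondrial ribosomal proteins, 32 of the proteasome or 26 chaperones. Limma gave 1, 18, 3 and 4 of them in that order an unadjusted p under 0.05, against 2373 of 5667 over all features. In all, 28 of the 68 lists held no called gene.

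**Figure D3:**
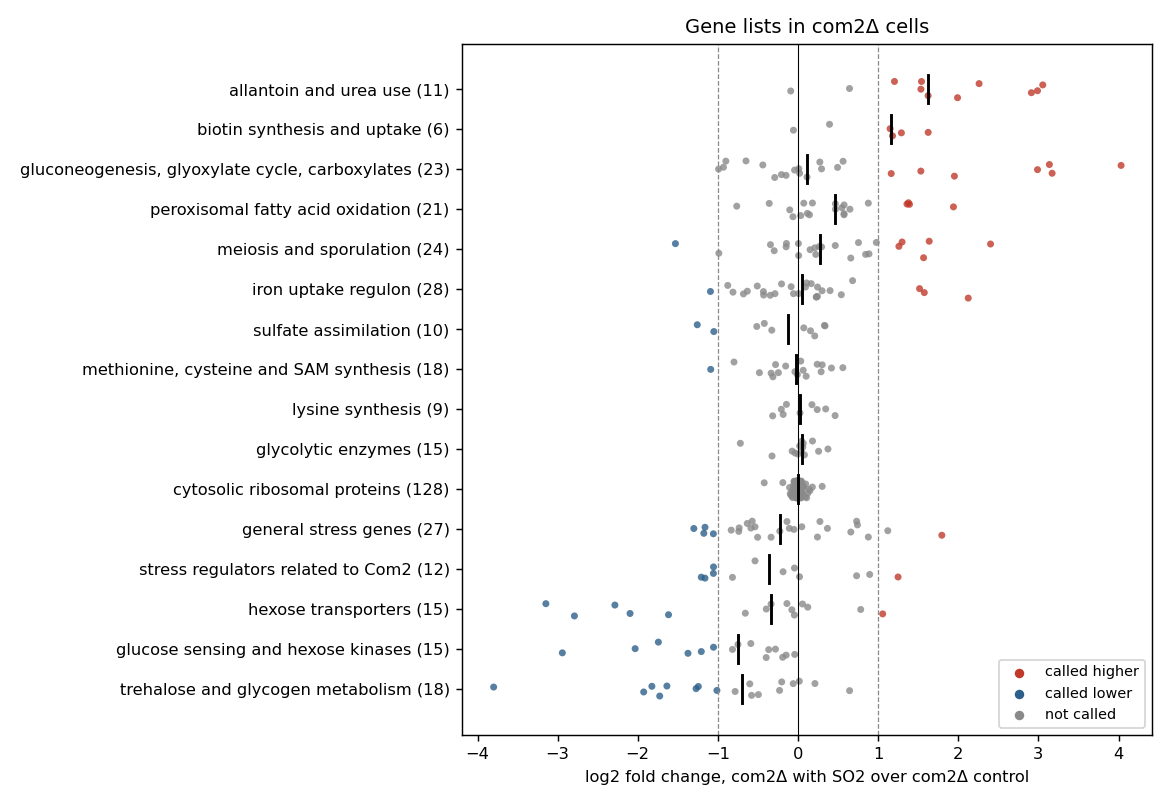
Log2 fold change of com2Δ cells with SO2 over com2Δ control cells (horizontal axis) for each measured gene of 16 lists, with the number of genes in brackets, red for genes called higher, blue for genes called lower, grey for genes not called, a black bar at the median and dashed lines at 2-fold. Genes of allantoin and biotin lie mostly right of the 2-fold line, glucose sensing lies left of 0, and sulfate assimilation, lysine synthesis and ribosomal proteins lie around 0.

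Each feature called in com2Δ cells was set beside its change in WT cells. A larger rise in com2Δ cells was called for 75 of 178 (42.1%, where 8.17% of all features had a difference called upward), a smaller one for 16, and for 87 no difference was called. A larger fall was called for 29 of 155 (18.7%, where 9.3% had a difference called downward), a smaller one for 23, and for 103 none. Without replicate 1 of com2Δ cells with SO2, 18 features had a larger fall called. The features were chosen by their change in com2Δ cells, which enters the difference, so these shares are a description. The median log2 fold change in WT cells was 0.677 for the features that rose and −1.35 for those that fell. Of the 87 that rose in com2Δ cells and were not called in WT cells, 53 had a called difference and 34 had none, so that for these 34 a response of the mutant that differs from that of WT cells was not shown. Of the 155 that fell, 96 also fell in WT cells, 6 rose there and 53 were not called, 22 of these with a called difference. Without SO2, 6 of the 178 were lower and 2 higher in com2Δ than in WT cells (0.353% of all features in each direction), and of the 155, 3 were lower and 1 higher. Under SO2, 65 of the 178 were higher and 20 lower in com2Δ than in WT cells (over all features, 7.62% were higher and 569 of 5667 lower), and of the 155, 18 were higher and 36 lower. The com2Δ values that chose these features also enter both strain comparisons, so these counts too are a description.

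**Figure D4:**
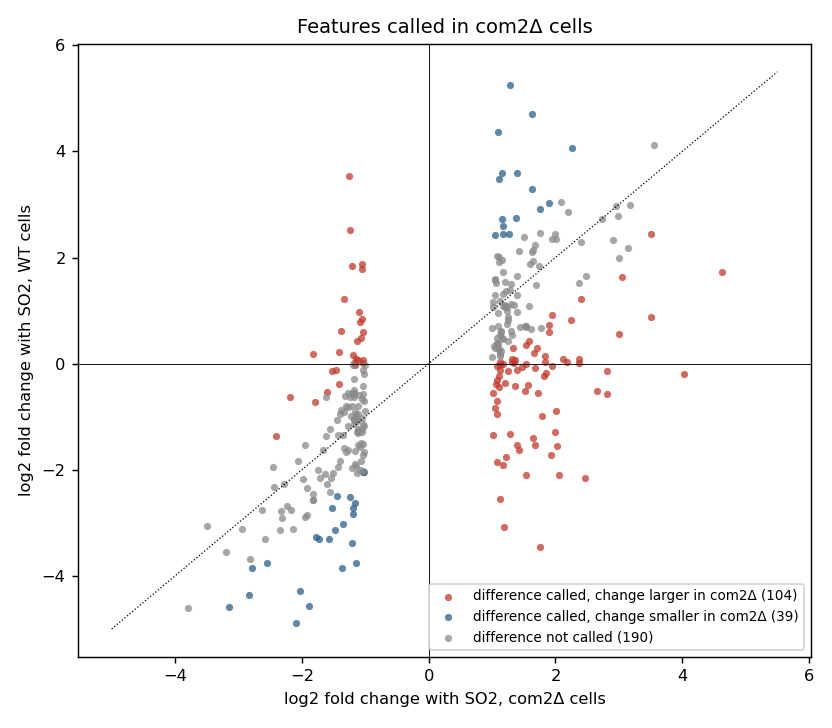
Log2 fold change with SO2 in com2Δ cells (horizontal axis) and in WT cells (vertical axis) of the 333 features called in com2Δ cells, the dotted line marking equal changes. Red points (104) have a called difference with the larger change in com2Δ cells, blue points (39) a called difference with the smaller change in com2Δ cells, and grey points (190) none.

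Nearest the limit of 2-fold on the inner side were SDS3 and ACF4, both at 1.0 on the log2 scale, and CRG1 at −1.0, with CMK2 and BNI1 (−1.0) and HBN1 (1.0) just outside. SDS3, a subunit of a histone deacetylase complex, read 783, 467 and 515 with SO2, against 285, 297 and 277 without. HBN1, related to FRM2, read 680, 925 and 591 with SO2 and 284, 268 and 612 without, so that 1 control array lay within the SO2 values.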

How the data were processed

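RNA of 12 yeast cultures was hybridised to Affymetrix yeast GeneChip arrays. Per the methods, the authors made the deposited intensity values with dChip, by invariant set normalization and a model of the perfect match probes, and the values are linear. The limit on the lower bound of the fold change and the detection calls that the methods also name were not applied. Each gene was represented by 1 probe set, the brightest on the log2 scale over all arrays, and 5716 probe sets gave 5667 features, 5449 of them named. Log2 intensities of all 12 arrays were fitted in limma 3.58.1 (R 4.3.3) with a mean for each of 4 groups (8 residual degrees of freedom), and p-values were adjusted over all features by Benjamini-Hochberg. The difference between strains was the contrast of the SO2 changes, com2Δ minus WT. The fit was also run on simulated arrays with independent noise and planted changes. These hold no array set apart from its replicates, so the run tests the code and not the calls made here. Named genes were the 15 highest and 15 lowest changes, the 10 largest called differences each way, the 8 largest changes of intensity each way, called members and a first regulator of each list, the checks, and the members next to the limit. PHD1 and the genes of the maltose, calcium and gamma-aminobutyrate lists, with further list members, were picked once values had been seen. The members and lists were chosen with earlier results of these data known. Deviations from the group means had r of −0.213, 0.0217 and 0.255 between same-numbered com2Δ arrays with and without SO2. Between arrays of other numbers r ran from −0.354 to 0.37. With 3 arrays a group these values cannot decide whether the numbers pair the arrays, and the main fit did not pair them. The alternatives were the replicate block, other normalizations, filters, limits and variance models, and leaving out arrays. Promoter and protein sequences were not analysed here.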

Additional observations from a re-analysis of the deposited data

Results flagged for a closer look

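For the genes named below, all of which were called in com2Δ cells, the difference between the SO2 responses of com2Δ and WT cells (com2Δ minus WT, log2 scale) itself passed the test in limma. Since they were picked by their change in com2Δ cells, the sizes are a description. The difference was upward and widest in YER053C-A (5.21), CIN5 (4.62), FMP48 (4.26), SFC1 (4.24), GND2 (4.16), ALD6 (3.68), SPR3 (3.65) and SDD1 (3.63). Below these came IZH4 (3.58), YER187W (3.39), DAK2 (3.18), GCY1 (3.04), YEF1 (2.94), SPS19 (2.93), HXT2 (2.80) and CTT1 (2.79). Upward differences of intermediate size were those of HAP4 (2.60), EMI2 (2.48), ROX1 (2.44), AQR1 (2.35), PHD1 (2.29), HXK1 (2.26), CIT3 (2.06) and FIT2 (2.03). Further upward differences were those of HMX1 (2.03), PHR1 (2.02), POX1 (1.99), SPS1 (1.97), GAC1 (1.58), DAL4 (1.55), HXT14 (1.44) and HXT4 (1.44). Smaller ones were those of DCG1 (1.42), SPS2 (1.39), PUT4 (1.34), IDP3 (1.30), TSL1 (1.27), RIO1 (1.26), YCL042W (1.2) and SPS100 (1.19). The smallest upward differences were those of SPO20 (1.18), PCK1 (1.18), FET4 (1.14), FRM2 (1.07), HXT7 (1.05), SIP4 (1.04) and GPX1 (1.01). The difference was downward in SUL1 (−4.79), BIO5 (−3.97), MMP1 (−3.75), MET28 (−3.27), BIO3 (−3.09), ATG1 (−3.06), MUP3 (−2.93) and MET14 (−2.83). Smaller downward differences were those of YNL042W-B (−2.56), BIO2 (−2.44), GAT1 (−2.20), GSH1 (−1.87), DAL80 (−1.81), DAL3 (−1.66), UGA3 (−1.57) and SNO1 (−1.56). The smallest downward differences were those of VHR1 (−1.41), GTO1 (−1.38), YAT2 (−1.37), PIR3 (−1.35), CHS3 (−1.10) and YMR085W (−1.03). Not all of these held under other settings of the 23 tried. The difference lost its call in 10 settings for YMR085W and YCL042W, in 9 for GPX1, in 7 for FRM2 and SPS100, in 6 for SIP4 and HXT7, in 5 for SPS2, in 4 for HXT14, in 3 for SPO20, and in 1 each for CHS3, FET4, PCK1, PUT4 and YNL042W-B. Most were single arrays left out, and for YCL042W the replicate block was among them. The sizes for SUL1, BIO5, DAL80, SFC1, DAK2, POX1, SPO20, SPS1, SPS2 and HXT14 rest in part on readings under 152.5 and are uncertain. With 16 added to each intensity, the difference of YNL042W-B was −0.63.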

How the results depend on the processing

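With each array left out in turn, 295 to 399 features were called in com2Δ cells, 149 to 236 of them higher and 146 to 181 lower, and a larger rise than in WT cells was called for 60 to 104, a larger fall for 18 to 40 and any difference for 116 to 184. The count of larger falls was 18 without replicate 1 of com2Δ cells with SO2, and the count of rises was highest without replicate 2. Without the 25% dimmest features, which leaves 4250, 144 were called (76 higher, 68 lower), with 24 larger rises, 15 larger falls and 61 with any difference. Without the com2Δ array of each group farthest from its replicates, an alternative chosen after seeing the data, 274 rose, with 124 larger rises, 54 larger falls and 224 with any difference. With an adjusted p under 0.05 and no fold limit 1637 were called (791 higher, 846 lower). With the replicate block, 334 features were called (179 higher, 155 lower), 76 rises and 29 falls were larger than in WT cells, and 143 differed. The arrays share only a number, so whether the block is a paired design is not known. It moved none of these counts by over 1.5 times, while the difference of YCL042W lost its call (1.2). Quantile normalization, median centring, an added 16, the filter on the deleted genes' reading, the 6 com2Δ arrays alone, other moderation, array weights, all probe sets and a stricter adjusted p moved none of these counts by over 1.5 times. Like counts can hold other features. With array weights 281 of the 333 features stayed called, and 28 of 217 results for single genes lost their call. Among these were SPS100 (−0.39), MET14 (−0.77), SNO1 (−0.83), BIO2 (0.86), CHS1 (−0.90), GSH1 (−0.93) and UGA3 (0.96). Of 217 results for single genes, 156 kept their call and direction under every one of the 23 settings in which they were tested, 61 lost or gained a call and 0 reversed. Only 112 of the 217 were tested without the 25% dimmest features, and 200 with the filter on the deleted genes' reading. The dim genes left out there could not lose a call in those settings. With 3 arrays a group and readings under 152.5 open to background, small changes of dim genes are the least certain.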
